A study of Mus musculus with 4 samples.

Results

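Ara-C resistance was compared with Ara-C sensitivity across a pair of mouse acute myeloid leukaemia lineages, gene by gene, with each resistant line set against its own parental line. Of the 21889 genes listed, 699 small RNA genes were left out. Of the others, 9999 had a mean FPKM (fragments per kilobase of transcript scaled by library size) of 1 or more over the 4 lines and were compared, and 11191 did not reach it. Both sensitive lines, B117P and B140P, are parental lines, with a labelled Ara-C IC50 of about 150 ng/ml and 110 ng/ml. The highly-resistant lines derived from them, B117H and B140H, have IC50 values of about 160 µg/ml and 60 µg/ml, which is 1067 and 545 times the parental value. Each parent and the line derived from it form a lineage, B117 or B140. All 4 lines carry the label of the BXH-2 strain. The labels of all 4 give exposure to rising Ara-C concentrations as the treatment and growth without Ara-C at passage, so the resistant cells were not under the drug in passage. Each resistant line is a single derived line with 1 RNA library, and nothing in the labels gives separate cultures within a line. The spread between the 2 lineages is therefore the replicate error, and it includes whatever differs between these leukaemias.

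Ara-C (cytarabine) is a deoxycytidine analogue that enters cells through nucleoside transporters and must be phosphorylated to its triphosphate before DNA polymerases can insert it into DNA. Deoxycytidine kinase, encoded by Dck, carries out the first phosphorylation, while cytidine deaminase, nucleotidases and the triphosphohydrolase Samhd1 work against activation. BXH-2 mice carry an endogenous retrovirus that causes myeloid leukaemia by inserting near genes that drive it, so lines from different mice of the strain can be unlike each other from the start.

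The libraries held an estimated 19300000 to 24950000 fragments, and 3 fragments on a 2 kb transcript correspond to 0.0601 to 0.0777 FPKM. Libraries of a lineage were close: Pearson's r of log2(FPKM + 1) over the 9999 genes was 0.96 for the B117 lines and 0.98 for the B140 lines, against 0.85 to 0.86 for any pair of libraries from different lineages. The haematopoietic genes Ptprc, Coro1a and Laptm5 were high in all 4 lines, at 50.1 to 89.0, 298 to 364 and 389 to 634 FPKM. The T cell receptor complex genes Cd3e and Cd3g and the epithelial genes Epcam, Krt8, Krt18 and Cdh1 were listed at 0 in all 4. Yet 8 of the 15 T and NK genes listed had a mean of 1 FPKM or more. Cd247, of the same receptor complex, was at 6.96 to 9.75 FPKM in all 4 lines. Nkg7 was at 74.8 and 70.5 FPKM in B117P and B117H and listed at 0 in the B140 lines. The lineages may have been normalised separately, because listed coordinates of 6 genes differ between them, and any level set across lineages carries that limit. In bulk RNA, fewer cells of a type and less RNA per cell cannot be told apart.

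Dck was lower in both resistant lines, by almost the same factor. It was at 20.1 FPKM in B117P, 3.31 in B117H, 17.8 in B140P and 2.44 in B140H. Both resistant lines lay far below both sensitive lines, and the groups did not overlap. The log2 ratios of FPKM + 1 were -2.29 and -2.45, a mean of -2.37 with an SD of 0.11 over the 2 lineages. Dck was the 1 gene of 9999 that changed 4-fold or more the same way in both lineages, 0.01% of those compared, while 4 genes (0.04%) passed 4-fold in opposite directions, 1 (0.01%) higher in B117H and 3 (0.03%) the reverse. In a paired limma fit with the lineage as a block, its mean ratio had a standard error of 0.24, an unadjusted p of 7.9e-06 and an adjusted p of 0.0792 over all genes compared (Benjamini-Hochberg), which misses 0.05. The adjusted p ranged from 0.00888 to 1 over the alternatives tried, and fell under 0.05 with a minimum mean FPKM of 5 (0.00888) and with genes listed at 0 left out (0.0155). The fit has 1 residual degree of freedom, and a permutation test of 2 lines against 2 could not give an exact two-sided p under 0.333.

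Over all genes limma called 0 of 9999 at an adjusted p of 0.05 (0%), and 283 genes (2.83%) had an unadjusted p under 0.05, 133 of them (1.33%) higher and 150 (1.5%) lower in the resistant lines. When only genes averaging 5 FPKM or more were tested it called 3 of 7747, namely Dck, Ifitm1 and Mpo, all lower. With genes listed at 0 left out it called Dck alone. Ifitm1, an interferon-inducible membrane protein, was at 22.7 FPKM in B117P, 2.11 in B117H, 18.1 in B140P and 4.78 in B140H. Both resistant lines lay below both sensitive lines, and the mean log2 ratio of -2.33 had a standard error of 0.32 and an adjusted p of 0.337 by limma. Mpo, the myeloperoxidase of granules in myeloid progenitors, was at 1450 FPKM in B117P, 473 in B117H, 10.4 in B140P and 0.913 in B140H. Its level differed far more between the lineages than within either, so B117H stayed above B140P and the groups overlapped. The paired mean log2 ratio of Mpo was -2.10 with a standard error of 0.30 and an adjusted p of 0.337 by limma, but the sign turned in an unpaired fit without B117P (1.40) or without B140H (1.88).

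The promoters of these 3 genes are shown because they had the lowest limma p-values in the paired fit, in which none passed an adjusted p of 0.05. They are RefSeq sequences of the GRCm38.p6 build, from 250 bases before to 50 after the annotated start, 5′ to 3′ on the gene's strand, with capitals marking the GC box (GGGCGG on either strand).
Dck, chr5:88764763-88765062, plus strand: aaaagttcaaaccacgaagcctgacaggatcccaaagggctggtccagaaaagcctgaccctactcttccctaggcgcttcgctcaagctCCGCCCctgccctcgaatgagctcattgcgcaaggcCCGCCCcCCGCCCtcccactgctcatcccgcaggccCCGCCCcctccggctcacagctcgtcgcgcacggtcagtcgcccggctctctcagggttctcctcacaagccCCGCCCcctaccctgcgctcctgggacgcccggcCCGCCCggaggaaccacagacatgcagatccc
Ifitm1, chr7:140967826-140968125, plus strand: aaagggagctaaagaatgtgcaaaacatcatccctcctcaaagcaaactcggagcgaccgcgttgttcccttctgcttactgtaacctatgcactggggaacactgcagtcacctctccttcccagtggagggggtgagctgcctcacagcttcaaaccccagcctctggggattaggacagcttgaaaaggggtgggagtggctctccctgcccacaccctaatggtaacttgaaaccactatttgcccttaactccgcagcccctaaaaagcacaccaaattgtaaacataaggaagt
Mpo, chr11:87793534-87793833, plus strand: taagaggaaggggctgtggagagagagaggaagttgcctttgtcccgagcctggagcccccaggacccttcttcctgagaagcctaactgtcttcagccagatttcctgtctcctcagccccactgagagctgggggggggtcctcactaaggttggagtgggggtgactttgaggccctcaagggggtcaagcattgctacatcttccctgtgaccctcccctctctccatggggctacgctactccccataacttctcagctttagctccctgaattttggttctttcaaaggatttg
The Dck promoter held 6 GC boxes, all on the reverse strand, a motif found in 35.7% of 32851 RefSeq promoters of this length. Searches on both strands for TATAAA (13.6% of all promoters), CCAAT (37.4%), CANNTG (72.3%), CCGGAAG (8.86%), TTNNGNAA (40.7%), an interferon response element (3.44%) and the NRF1 core motif (6.23%) found TTNNGNAA in Dck, on both strands at the same bases, and no other match in Dck. None of the 8 motifs, the GC box included, was found in the Ifitm1 or Mpo windows. Of the 300 bases, 67% were G or C in Dck, 51.3% in Ifitm1 and 55.3% in Mpo, beside a median of 52.7% over all promoters. The deposited expression values were made on the older mm9 build, in which Dck is listed at chr5:89194038-89212302, and no coordinate was moved between builds.

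Few genes changed the same way in both lineages. A ratio of 2-fold or more was reached by 423 genes in lineage B117 (4.23%), 126 higher (1.26%) and 297 lower (2.97%), and by 353 genes in lineage B140 (3.53%), 204 higher (2.04%) and 149 lower (1.49%). Of all genes compared, 6 (0.06%) were 2-fold or more higher in both resistant lines and 8 (0.08%) were lower in both. A further 36 genes (0.36%) passed 2-fold in opposite directions. With a pseudocount of 0.1 FPKM in place of 1, which lets low genes reach larger ratios, 21 were higher and 33 lower in both and 78 were opposite. At 1.5-fold the counts were 50 higher in both (0.5%), 45 lower in both (0.45%) and 165 opposite (1.65%), of which 37 (0.37%) were higher in B117H and lower in B140H and 128 (1.28%) the reverse. With each lineage centred on its median ratio, the 1.5-fold split became 39 higher and 61 lower.

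**Figure D1:**
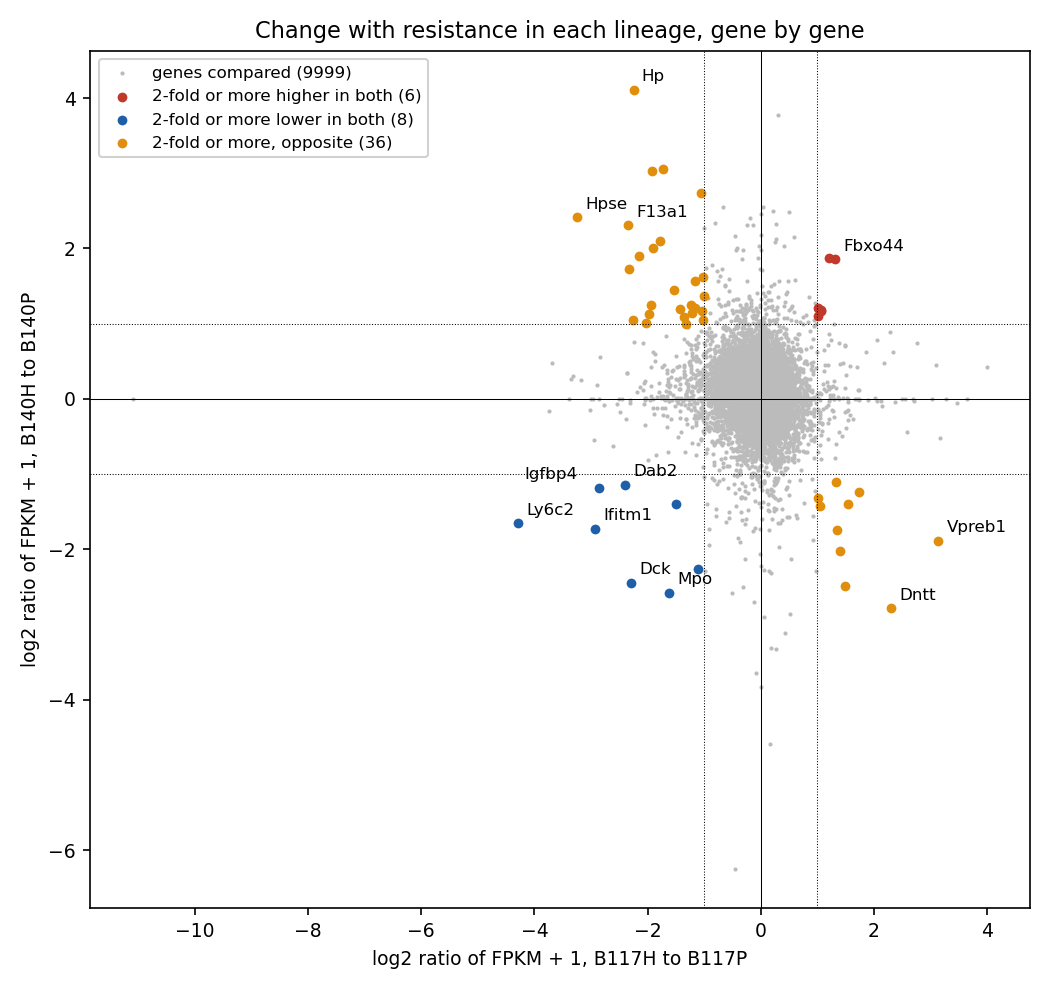
Log2 ratio of FPKM + 1, resistant to parental, for 9999 genes, with lineage B117 on the x axis and lineage B140 on the y axis, and dotted lines at 2-fold. The 6 red genes and 8 blue genes changed 2-fold or more the same way in both lineages and the 36 orange genes in opposite ways, and the grey cloud shows no common slope.

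The changes in the lineages had no positive relation across genes. Across the 9999 genes the Pearson correlation of the ratios was -0.10 and Spearman's rho was -0.14, a description over genes, which are not independent and share the 4 libraries. Both ratios had the same sign in 42.9% of genes. Of the 126 genes higher past 2-fold in B117H, 6 (4.76%) were also higher past 2-fold in B140H and 10 (7.94%) were lower. Of the 204 higher in B140H, 6 (2.94%) were also higher in B117H and 26 (12.7%) were lower there. Of the 297 genes lower in B117H, 8 (2.69%) were lower and 26 (8.75%) higher in B140H. Of the 149 lower in B140H, 8 (5.37%) were lower and 10 (6.71%) higher in B117H.

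A mean over the lineages is often carried by 1 of them. The mean ratio passed 2-fold upward in 59 genes and downward in 76. In 36 of the 59 and 55 of the 76, at least 1 lineage had changed by less than 1.5-fold in that direction. The median absolute difference between the lineages' log2 ratios was 0.38 and its 95th percentile 1.36, against an SD of the mean ratio over genes of 0.31. The median absolute difference was 0.42 in the 2252 genes with a mean of 1 to 5 FPKM and 0.37 in the 735 genes at 100 FPKM or more. The median log2 ratio of all genes was -0.03 for the B117 lines and 0.11 for the B140 lines.

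The 8 genes lower in both lineages past 2-fold were Dck, Ifitm1, Mpo, Ly6c2, Igfbp4, Dab2, Ccbl2 and an unnamed locus. Ly6c2, a surface marker of inflammatory monocytes, was at 27.2 FPKM in B117P, 0.433 in B117H, 2.34 in B140P and 0.0611 in B140H. The value in B140H is about that of 3 fragments on a 2 kb transcript, and Ly6c2 has a near copy, Ly6c1, with which reads may be split. Both resistant lines lay below both sensitive lines, with log2 ratios of -4.30 and -1.66. Igfbp4, a secreted binding protein of insulin-like growth factors, was at 102 FPKM in B117P, 13.2 in B117H, 105 in B140P and 45.8 in B140H. The parental levels of Igfbp4 were nearly equal and both resistant lines were lower, with ratios of -2.86 and -1.18. Dab2, a clathrin adaptor of endocytosis, was at 68.7 FPKM in B117P, 12.3 in B117H, 13.8 in B140P and 5.72 in B140H. Its groups did not overlap, although B117H and B140P were close. Ccbl2, a kynurenine aminotransferase, was at 15.5 FPKM in B117P, 6.69 in B117H and 3.79 in B140P and listed at 0 in B140H. An exact 0 in such a table can be a failed estimate, so the ratio of Ccbl2 in lineage B140 is not given as a fold. The eighth gene is an unnamed locus whose span overlaps the MHC class I genes H2-D1 and H2-Q1, so its reads cannot be separated from theirs. None of these passed limma, with adjusted p-values of 0.798 or higher for Ly6c2, Igfbp4, Dab2 and Ccbl2.

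At the 1.5-fold level the genes lower in both lineages included the metallothioneins Mt1 and Mt2. Mt2, a metal-binding metallothionein, was at 468 FPKM in B117P, 248 in B117H, 64.3 in B140P and 16.0 in B140H. Mt1, of the same family and chosen after its values were seen, was at 985, 623, 430 and 229 FPKM in the same order of lines. Within each lineage the resistant line was the lower one for both genes, but B117H lay above B140P, so the sensitive and resistant groups overlapped. Fkbp11, a prolyl isomerase of the endoplasmic reticulum, was at 20.2 and 9.74 FPKM in the B117 lines and 5.53 and 0.340 FPKM in the B140 lines, the parental line first. Serpinb6b, a protease inhibitor, was at 5.76 and 2.59 FPKM in the B117 lines and 8.70 and 1.93 FPKM in the B140 lines. Frrs1, a ferric reductase, was at 15.4 and 8.01 FPKM in the B117 lines and 14.7 and 6.56 FPKM in the B140 lines. Cds1, which makes CDP-diacylglycerol for phospholipid synthesis, was at 5.99 and 2.95 FPKM in the B117 lines and 3.02 and 0.900 FPKM in the B140 lines. Mex3a, an RNA-binding protein whose span overlaps Mir1905, and Sh3tc1 had mean log2 ratios of -1.02 and -0.96.

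The genes higher in both lineages past 2-fold were Fbxo44, Rtn4rl1, Pigk, Ankrd13c and a pair of unnamed clones. Fbxo44, the substrate-binding part of a ubiquitin ligase, was at 2.34 FPKM in B117P, 7.26 in B117H, 0.876 in B140P and 5.80 in B140H. Both resistant lines lay above both sensitive lines, with log2 ratios of 1.31 and 1.86. Rtn4rl1, a relative of the Nogo receptor, was at 2.94 FPKM in B117P, 7.24 in B117H, 1.59 in B140P and 4.84 in B140H. Pigk, a subunit of the enzyme that attaches GPI anchors to proteins, was at 3.11 FPKM in B117P, 7.58 in B117H, 3.75 in B140P and 9.63 in B140H. Ankrd13c, an ankyrin repeat protein, was at 6.40 FPKM in B117P, 14.0 in B117H, 8.61 in B140P and 19.6 in B140H. The groups of Rtn4rl1, Pigk and Ankrd13c did not overlap either, and the lineage SDs of their log2 ratios were 0.08, 0.07 and 0.06. Limma gave Fbxo44 an adjusted p of 0.798, and Rtn4rl1, Pigk and Ankrd13c one of 0.9996.

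**Figure D2:**
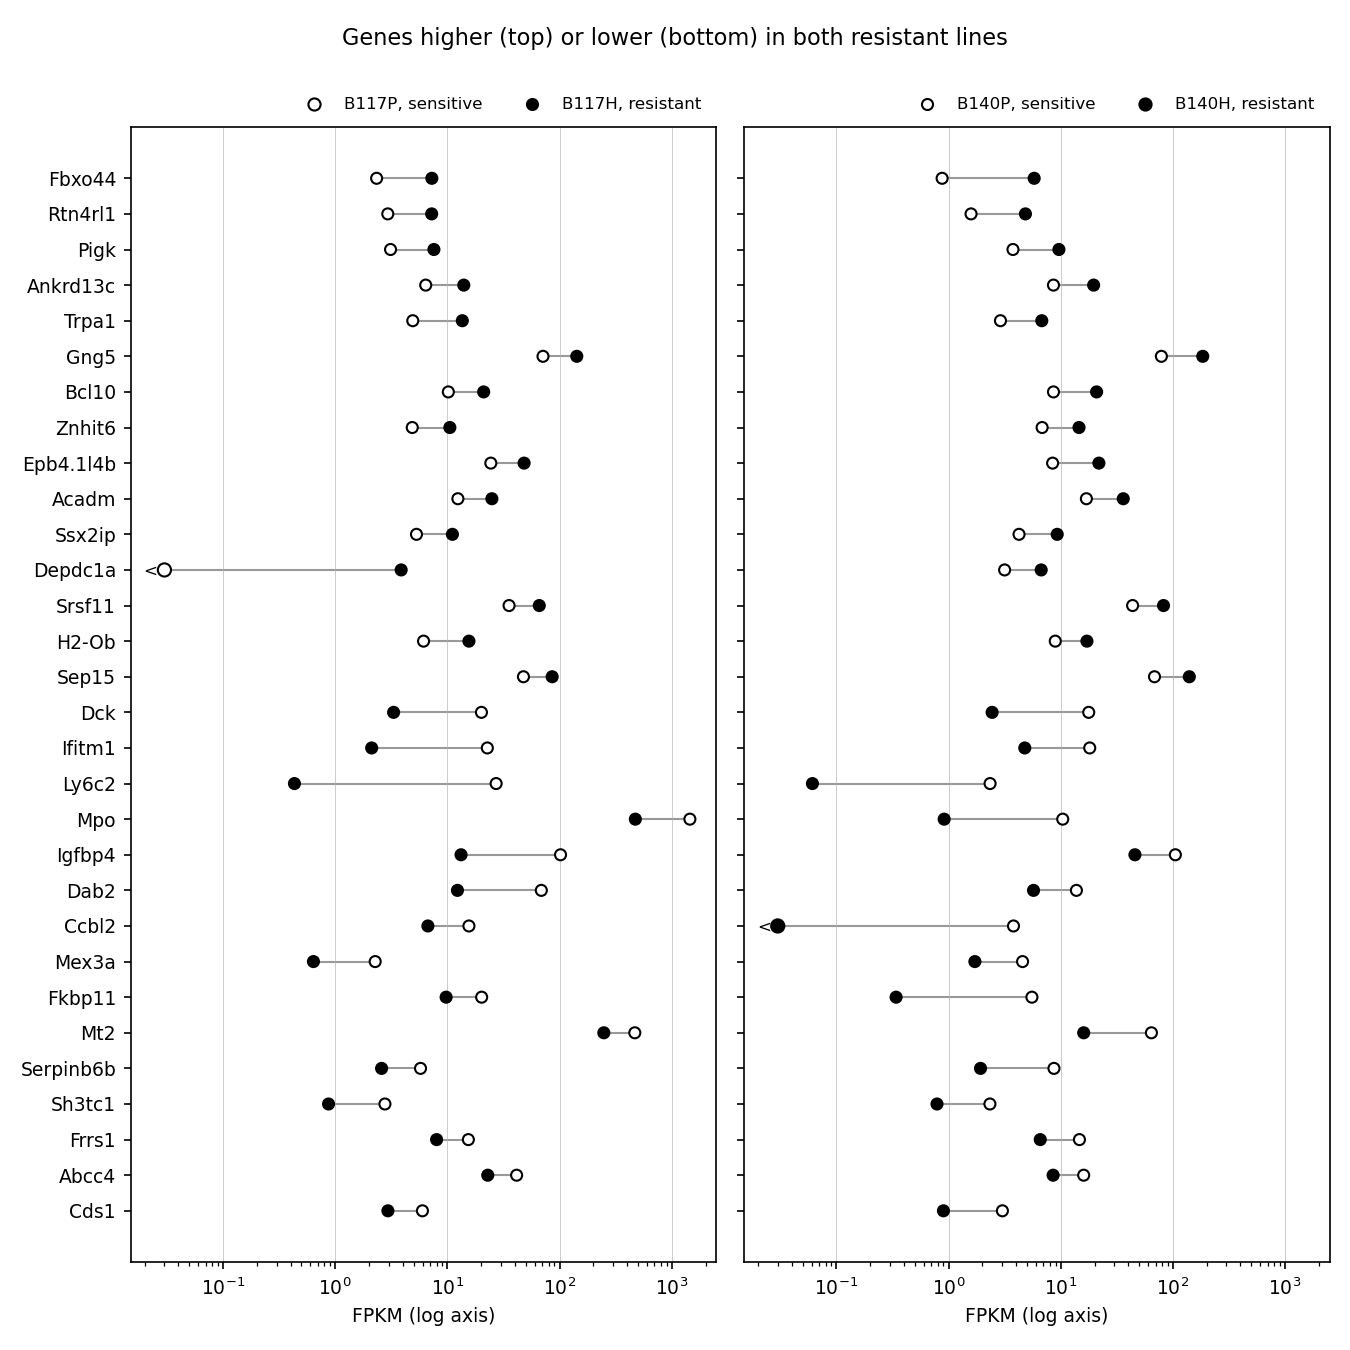
FPKM on a log axis in the sensitive (open) and resistant (filled) line of lineage B117 (left) and B140 (right), for 15 named genes higher and 15 lower in both lineages by 1.5-fold or more, with values under 0.03 drawn at 0.03 and marked "<". Every filled point lies right of its open partner in the upper 15 genes and left of it in the lower 15, while levels such as those of Mpo differ between the panels.

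Outside chromosome 3, the named genes higher in both by 1.5-fold or more were of several kinds. Trpa1, an irritant-sensing cation channel, was at 4.91 and 13.6 FPKM in the B117 lines and 2.90 and 6.78 FPKM in the B140 lines. Epb4.1l4b, a FERM-domain protein of the cell cortex, was at 24.4 and 48.3 FPKM in the B117 lines and 8.46 and 21.9 FPKM in the B140 lines. H2-Ob, a chain of the protein that regulates peptide loading on MHC class II, was at 6.13 and 15.6 FPKM in the B117 lines and 8.93 and 17.1 FPKM in the B140 lines. H2-Ob did not overlap between the groups, whereas in Epb4.1l4b the sensitive B117P lay above the resistant B140H.

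Many of the genes higher in both lineages lay together at the far end of chromosome 3. Of the 36 genes compared beyond 140 Mb there (mm9 coordinates), 21 were higher by 1.5-fold or more in both lineages (58.3%), against 29 of the 9963 genes elsewhere (0.291%). They include 3 of the 6 genes past 2-fold, Pigk, Ankrd13c and 1 unnamed clone. Higher by any amount in both were 29 of the 36 (80.6%), against 26.4% elsewhere, and in 26 of the 36 both resistant lines lay above both sensitive lines, against 1003 of the 9963 elsewhere and 10.3% of all genes. The 36 genes had a median log2 ratio of 0.82 between the B117 lines and 0.72 between the B140 lines. In the block from 120 to 140 Mb, with 52 genes, they were -0.01 and 0.31. The border was set after the values were seen. No test of the cluster was made, and centred or quantile-normalised ratios left 17 and 18 of the 36 past 1.5-fold in both.

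Those genes serve unrelated functions, and many had similar ratios in the lineages. Others did not, such as Dnajb4 (log2 ratios of 1.73 and 0.12) and Lrrc40 (0.87 and 0.26). Bcl10, an adaptor of NF-kB signalling, was at 10.2 and 21.0 FPKM in the B117 lines and 8.61 and 20.9 FPKM in the B140 lines. Gng5, a gamma subunit of heterotrimeric G proteins, was at 71.1 and 142 FPKM in the B117 lines and 78.9 and 184 FPKM in the B140 lines. Acadm, which starts the oxidation of medium-chain fatty acids, was at 12.4 and 24.9 FPKM in the B117 lines and 16.9 and 36.1 FPKM in the B140 lines. In Bcl10, Gng5 and Acadm both resistant lines lay above both sensitive lines. Srsf11, a splicing factor, was at 35.4 and 65.9 FPKM in the B117 lines and 43.7 and 82.4 FPKM in the B140 lines. Sep15, a selenoprotein of the endoplasmic reticulum, was at 47.6 and 85.8 FPKM in the B117 lines and 68.5 and 140 FPKM in the B140 lines. Znhit6, which helps to assemble box C/D small nucleolar ribonucleoproteins, had ratios of 0.97 and 0.99, and Ssx2ip, a centrosome protein, had ratios of 0.94 and 0.97. Depdc1a was listed at 0 in B117P, at 3.87 FPKM in B117H, and at 3.16 and 6.69 FPKM in lineage B140, so no fold is given for lineage B117. At the near border of the stretch the pattern stopped: Ccbl2 was lower in both resistant lines, and Gtf2b, a general transcription factor chosen after its values were seen, was lower in B117H (113 to 43.6 FPKM) and higher in B140H (19.1 to 41.8 FPKM). Pdlim5, Gbp6 and Gbp3 at that border were also lower in both, although Gbp6 and Gbp3 were near 0 in the B140 lines.

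**Figure D3:**
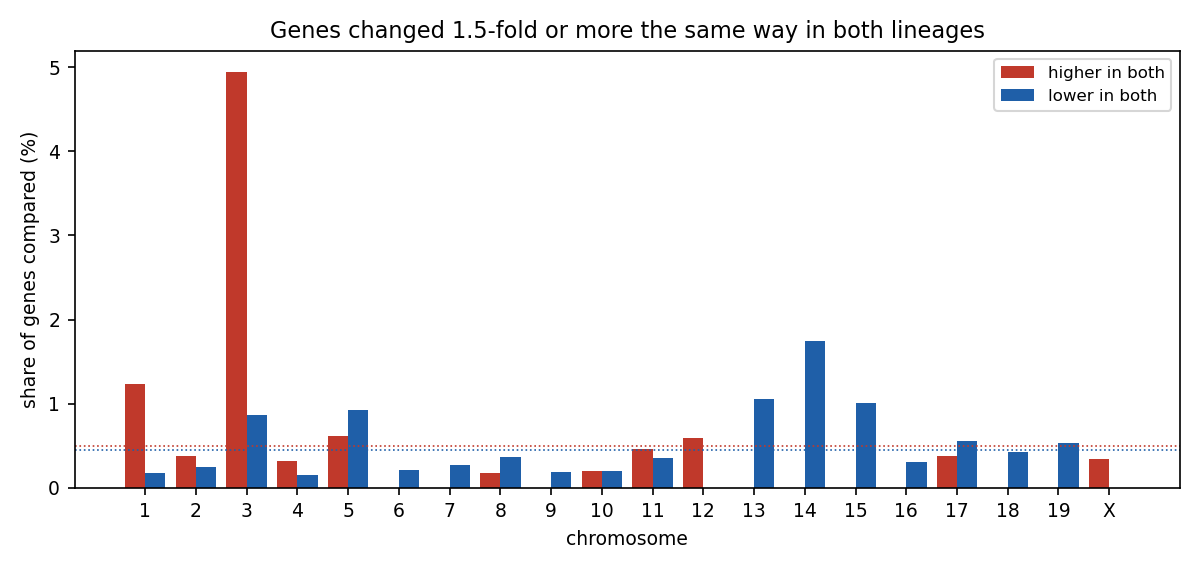
Share of the genes compared on each chromosome that were 1.5-fold or more higher (red) or lower (blue) in both lineages, with dotted lines at the shares over all genes, 0.5% and 0.45%. Chromosome 3 stands out in red, with 23 of the 50 genes.

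Among the 41 genes of Ara-C uptake and metabolism compared, Dck and Abcc4 were the 2 lower by 1.5-fold or more in both lineages and none was higher. Abcc4, an exporter of cyclic and analogue nucleotides, was at 41.4 FPKM in B117P, 22.9 in B117H, 16.0 in B140P and 8.55 in B140H. Its log2 ratios were both -0.83, but the sensitive B140P lay below the resistant B117H. Of the 41, 17 were higher and 7 lower in both lineages by any amount, against 26.6% and 16.4% of all genes. Nt5e, among the 7 lower, was at 0.029 and 0.011 FPKM in the B140 lines. It met the filter on mean FPKM through lineage B117 alone, at 26.4 and 9.58 FPKM. Of the 3 ribonucleotide reductase genes, whose enzyme makes the deoxynucleotides that compete with Ara-C triphosphate, Rrm1 and Rrm2 were among those higher in both, while Rrm2b had log2 ratios of 0.21 and -0.10. Rrm1, its large subunit, was at 73.2 FPKM in B117P, 95.3 in B117H, 94.2 in B140P and 125 in B140H. Rrm2, its small subunit, was at 83.4, 111, 113 and 174 FPKM in that order. B117H and B140P were nearly level for both subunits, so both resistant lines lay just above both sensitive lines for Rrm1, while the groups of Rrm2 overlapped. Nme3, a nucleoside diphosphate kinase whose span overlaps Mapk8ip3, was at 6.91 and 10.4 FPKM in the B117 lines and 14.7 and 21.4 FPKM in the B140 lines. The uptake transporter Slc29a1 had log2 ratios of -0.01 and 0.60, and the nucleotidase Nt5c2 had ratios of -0.41 and 0.30. Cda, the deaminase that inactivates Ara-C, the transporter Slc28a1 and Dpyd were listed at 0 in all 4 lines.

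DNA replication genes were mostly higher in both resistant lines, each by a small amount. Of 47 replication and checkpoint genes, 34 were higher in both lineages and none was lower in both, against 26.6% and 16.4% of all genes. In 27 of the 47 both resistant lines lay above both sensitive lines, against 10.3% of all genes, and in none did both lie below, against 5.38% of all genes. None reached 1.5-fold in both, and the median log2 ratios were 0.22 and 0.30. With centred ratios 33 of the 47 were higher in both, against 21.8% of all genes, and with quantile-normalised values 30, against 25.5%. Mcm7, a subunit of the replicative helicase whose span holds 3 microRNA genes, was at 136 and 181 FPKM in the B117 lines and 139 and 253 FPKM in the B140 lines. Rfc5, a subunit of the clamp loader, was at 35.8 FPKM in B117P, 51.3 in B117H, 31.7 in B140P and 50.8 in B140H. Mcm3, another helicase subunit, was at 149 and 198 FPKM in the B117 lines and 105 and 154 FPKM in the B140 lines, and Timeless, a fork protection protein, was at 24.8 and 31.8 FPKM and at 25.5 and 42.7 FPKM. Mcm7 and Timeless were picked with their values in view. The groups did not overlap for any of these 4 genes. Rfc3 of the same list was at 28.7 and 40.5 FPKM in the B117 lines and 71.3 and 123 FPKM in the B140 lines. Its groups overlapped, because the sensitive B140P lay above the resistant B117H. The checkpoint kinases of the list changed in opposite directions or hardly in lineage B117, with log2 ratios of 0.58 and -0.48 for Chek1, 0.02 and -0.58 for Atr and 0.16 and -0.81 for Atm.

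DNA repair genes were more often higher than lower by small amounts. Of 44 compared, 24 were higher and 1 lower in both lineages, against 26.6% and 16.4% of all genes. With centred ratios the counts were 20 and 5, against 21.8% each of all genes. Nbn, of the complex that senses double-strand breaks, had log2 ratios of 0.29 and 0.26, and Ung, which removes uracil from DNA, had ratios of 0.36 and 0.21. The 1 lower gene was Lig3, a DNA ligase whose span overlaps Rffl, with ratios of -0.23 and -0.25. Xrcc5, which encodes Ku80 of the end-joining machinery, went past 2-fold in opposite directions.

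Several genes of peptide loading on MHC class I were higher in both resistant lines. Of 23 MHC class I pathway genes, 11 were higher and 1 lower in both lineages, against 26.6% and 16.4% of all genes. With centred ratios the counts were 8 and 4, against 21.8% each of all genes. Psmb9, a subunit of the immunoproteasome, was at 116.9 FPKM in B117P, 189 in B117H, 146 in B140P and 218 in B140H. The peptide transporter subunit Tap1 was at 44.8 and 68.0 FPKM in the B117 lines and 53.7 and 77.8 FPKM in the B140 lines, and the subunit Tap2 at 93.9 and 166 FPKM and at 106 and 147 FPKM. In all 3 both resistant lines lay above both sensitive lines. The loading chaperones tapasin (Tapbp, -0.17 and 0.68) and calreticulin (Calr, -0.44 and 0.34) had log2 ratios of opposite sign in the lineages. Of 9 MHC class II genes, 3 were higher and 5 lower in both, beside the same 26.6% and 16.4% of all genes. Among those lower, Cd74 was at 0.879 and 0.477 FPKM in the B140 lines and met the filter on mean FPKM through lineage B117 alone. Rfx5, also among them, had log2 ratios of only -0.02 and -0.15. Ifi30, a lysosomal thiol reductase that opens antigens, was at 11.1 and 0.569 FPKM in the B117 lines and 4.16 and 2.52 FPKM in the B140 lines. Among 29 interferon-stimulated genes, 8 (27.6%) were higher and 10 (34.5%) lower in both, so the share higher was near that of all genes. Gbp3, Isg15, Irf7, Rtp4 and Usp18 among those lower, and Ddx58 among those higher, were under 1 FPKM in both B140 lines. These genes met the filter on mean FPKM through lineage B117 alone. Ifitm1 was the 1 gene of the list past 1.5-fold in both. Ifitm2, of the same family, had log2 ratios of -0.57 and 0.55, opposite in the lineages.

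The 3 serine synthesis genes were lower in both resistant lines. Phgdh, Psat1 and Psph encode the 3 steps from 3-phosphoglycerate to serine. Psph was at 15.6 FPKM in B117P, 3.59 in B117H, 10.99 in B140P and 6.17 in B140H. Psat1 was at 149 and 90.6 FPKM in the B117 lines and 31.9 and 17.8 FPKM in the B140 lines. Phgdh was at 256 and 173 FPKM in the B117 lines and 296 and 159 FPKM in the B140 lines. For Psph and Phgdh both resistant lines lay below both sensitive lines, and Psph and Psat1 passed 1.5-fold in both lineages. The list that holds them, 30 genes of the ATF4 and unfolded protein responses, had 1 gene higher and 7 lower in both, against 26.6% and 16.4% of all genes. With centred ratios or quantile-normalised values 14 were lower, against 21.8% and 18.9% of all genes. Its median log2 ratios were -0.34 and 0.07, and Atf4 itself had ratios of -0.30 and 0.20.

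Immediate early, glycolysis and Ras pathway genes were more often lower than higher in both, where all genes were higher in 26.6% and lower in 16.4%. Of 22 immediate early and AP-1 genes, none was higher and 9 (40.9%) were lower in both lineages, with medians of -0.61 and -0.02. Myc was at 135 FPKM in B117P, 105 in B117H, 120 in B140P and 62.1 in B140H, with both resistant lines below both sensitive lines. Ier3, a stress-induced early gene, was at 8.20 and 0.505 FPKM in the B117 lines and 1.58 and 0.672 FPKM in the B140 lines. Of 30 glycolysis and hypoxia genes, 3 (10%) were higher and 9 (30%) lower in both. The lineages differed, as 25 of the 30 were lower in B117H but 19 were higher in B140H, with medians of -0.49 and 0.18. Pkm2, the pyruvate kinase of growing cells, was at 943 and 563 FPKM in the B117 lines and 979 and 735 FPKM in the B140 lines, and Hk2, hexokinase 2, at 23.4 and 12.0 FPKM and at 14.1 and 10.7 FPKM. For Pkm2 and Hk2 both resistant lines lay below both sensitive lines. Pfkfb4 of the same list went the other way, with both resistant lines above both sensitive lines. It was at 2.39 and 4.71 FPKM in the B117 lines and 2.50 and 3.62 FPKM in the B140 lines. Of 26 Ras pathway genes, 2 (7.69%) were higher and 8 (30.8%) lower in both, but 6 and 8 with quantile-normalised values, against 25.5% and 18.9% of all genes. Map2k1, the kinase MEK1, whose span overlaps Uchl4, was at 29.1 and 22.6 FPKM in the B117 lines and 27.8 and 18.6 FPKM in the B140 lines. Rasa4 of the same list was higher in both resistant lines. It was at 8.90 and 10.5 FPKM in the B117 lines and 4.19 and 28.3 FPKM in the B140 lines.

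**Figure D4:**
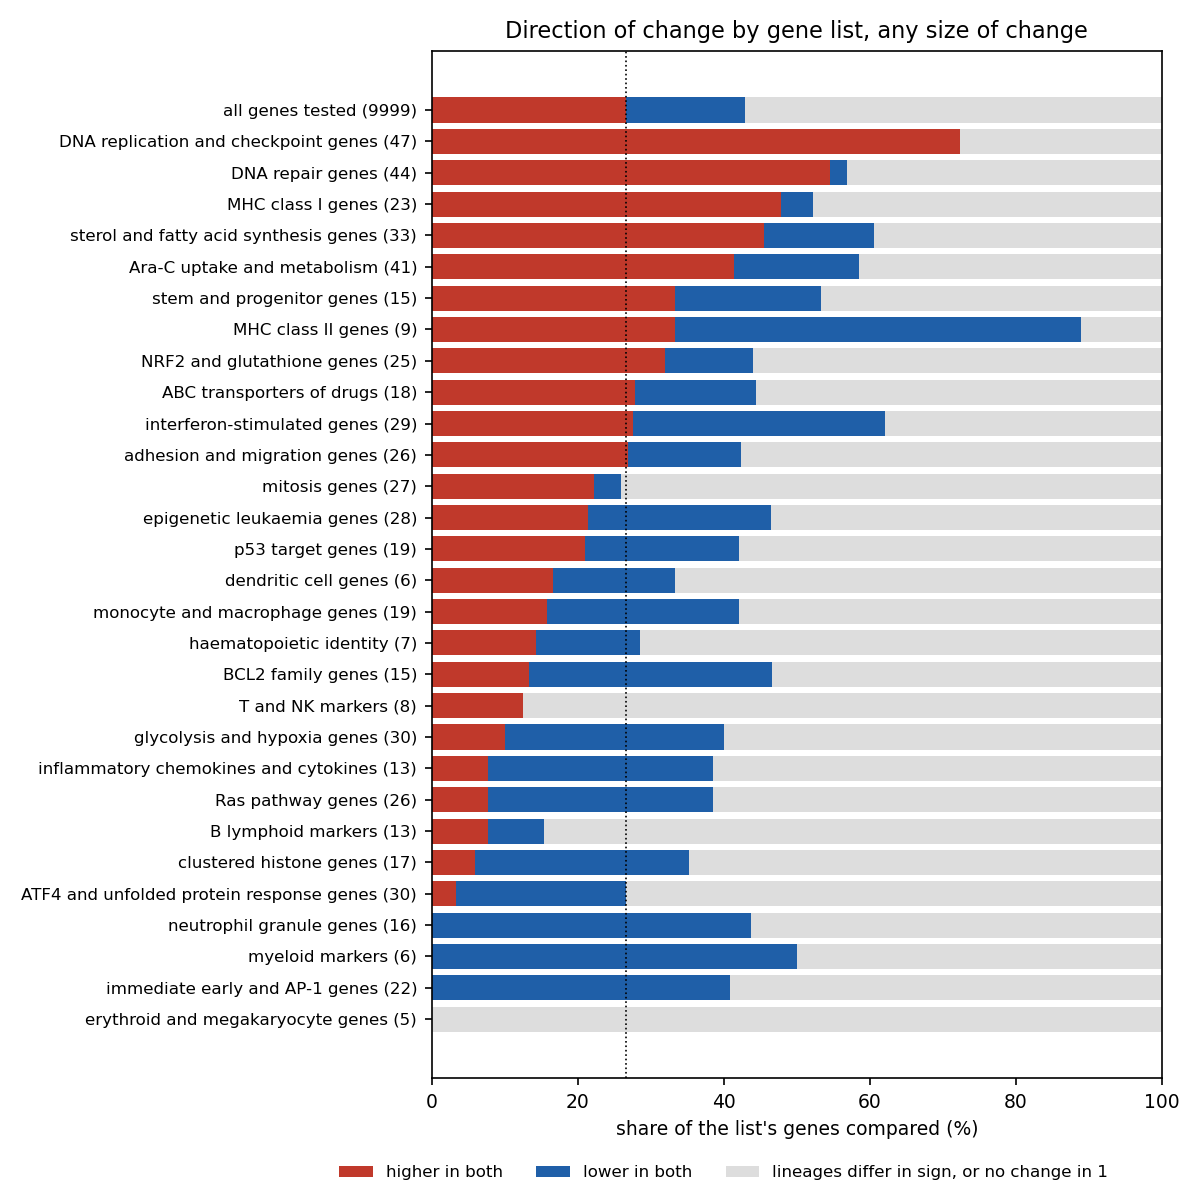
Share of each gene list's compared genes that were higher (red) or lower (blue) in both resistant lines by any amount, with the number compared in brackets and a dotted line at the 26.6% of all genes that were higher in both. DNA replication genes reach furthest right in red, with 34 of 47, and the neutrophil granule, myeloid, immediate early and erythroid lists have no red part.

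Of 33 sterol and fatty acid synthesis genes, 15 (45.5%) were higher and 5 (15.2%) lower in both, against 26.6% and 16.4% of all genes. With quantile-normalised values 7 (21.2%) were higher and 4 (12.1%) lower, against 25.5% and 18.9%. Fdps, which makes farnesyl diphosphate, was at 479 and 597 FPKM in the B117 lines and 207 and 284 FPKM in the B140 lines, so levels overlapped between the groups. Mvd, an earlier enzyme of the mevalonate pathway, had ratios of 0.89 and 0.39.

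Of 16 neutrophil granule genes, 15 were lower in B117H, while 8 were lower and 7 higher in B140H. None was higher and 7 were lower in both, against 26.6% and 16.4% of all genes. With centred ratios the counts were 0 and 9, against 21.8% each of all genes, and with quantile-normalised values 1 and 7, against 25.5% and 18.9%. Of the 7 lower in both, Elane, Ms4a3, Csf3r, Lyz1 and Lyz2 were under 1 FPKM in both B140 lines. These genes met the filter on mean FPKM through lineage B117 alone, so their falls in B140H were between low values. The median log2 ratios were -1.20 and -0.08. Mpo was the 1 past 1.5-fold in both. Elane, neutrophil elastase, was at 81.1 and 14.8 FPKM in the B117 lines and 0.385 and 0.154 FPKM in the B140 lines, so its level in lineage B140 was low in both lines. Ctsg, cathepsin G of the same granules, was at 735 and 402 FPKM in the B117 lines and 337 and 270 FPKM in the B140 lines. The summed FPKM of the 6 myeloid marker genes was 1610 in B117P and 546 in B117H but 28.8 in B140P and 25.6 in B140H. By this sum the sensitive lines differed more from each other than from their resistant derivatives. Mpo alone made up most of it in the B117 lines, at 1450 and 473 FPKM. The 18 B lymphoid marker genes, of which 13 were compared, summed to 219 and 551 FPKM in the sensitive lines and to 349 and 838 in the resistant ones. Cd24a, a surface glycoprotein that the lineages changed in opposite directions, made up most of the sum in B140H, at 154.6 and 30.1 FPKM in the B117 lines and 192 and 638 FPKM in the B140 lines. Of the 13 compared, 1 was higher and 1 lower in both, and the medians were 0.14 and -0.08. The part of cell composition in these changes was not tested.

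Some monocyte and lymphoid progenitor genes were among those that went in opposite directions. Of the 36 genes opposite past 2-fold, 10 (0.1%) were higher in B117H and lower in B140H and 26 (0.26%) the reverse. Dntt, the terminal transferase of lymphoid progenitors, was at 44.2 FPKM in B117P, 222 in B117H, 137 in B140P and 19.2 in B140H. Vpreb1, a component of the pre-B cell receptor, was at 8.32, 81.3, 54.8 and 14.1 FPKM in that order. For both genes the resistant B117H was the highest of the 4 lines, and the order within lineage B140 was the reverse. Angpt1, a ligand of the receptor Tie2, was at 10.7 and 33.1 FPKM in the B117 lines and 4.35 and 1.02 FPKM in the B140 lines. The reverse pattern held for F13a1, the A subunit of coagulation factor XIII, at 6.82 FPKM in B117P, 0.533 in B117H, 9.02 in B140P and 48.8 in B140H. Hp, haptoglobin, was at 40.01, 7.64, 2.91 and 66.6 FPKM in that order. Of 19 monocyte and macrophage genes, 3 (F13a1, Irf8 and Trem2) were opposite past 2-fold, against 0.36% of all genes. By any amount 3 (15.8%) were higher and 5 (26.3%) lower in both, against 26.6% and 16.4% of all genes. Cd14, Fcgr3 and Adam8 among those lower, and Emr1 among those higher, were under 1 FPKM in both B140 lines. The median log2 ratios of the list were -0.67 and 0.29. Irf8, a transcription factor of monocyte and dendritic cells and chosen after its values were seen, was at 119 and 57.2 FPKM in the B117 lines and 88.5 and 200 FPKM in the B140 lines. The mean log2 ratios over the lineages were -0.24 for Dntt, 0.63 for Vpreb1, 0.07 for Angpt1, -0.02 for F13a1, 0.93 for Hp and 0.06 for Irf8.

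**Figure D5:**
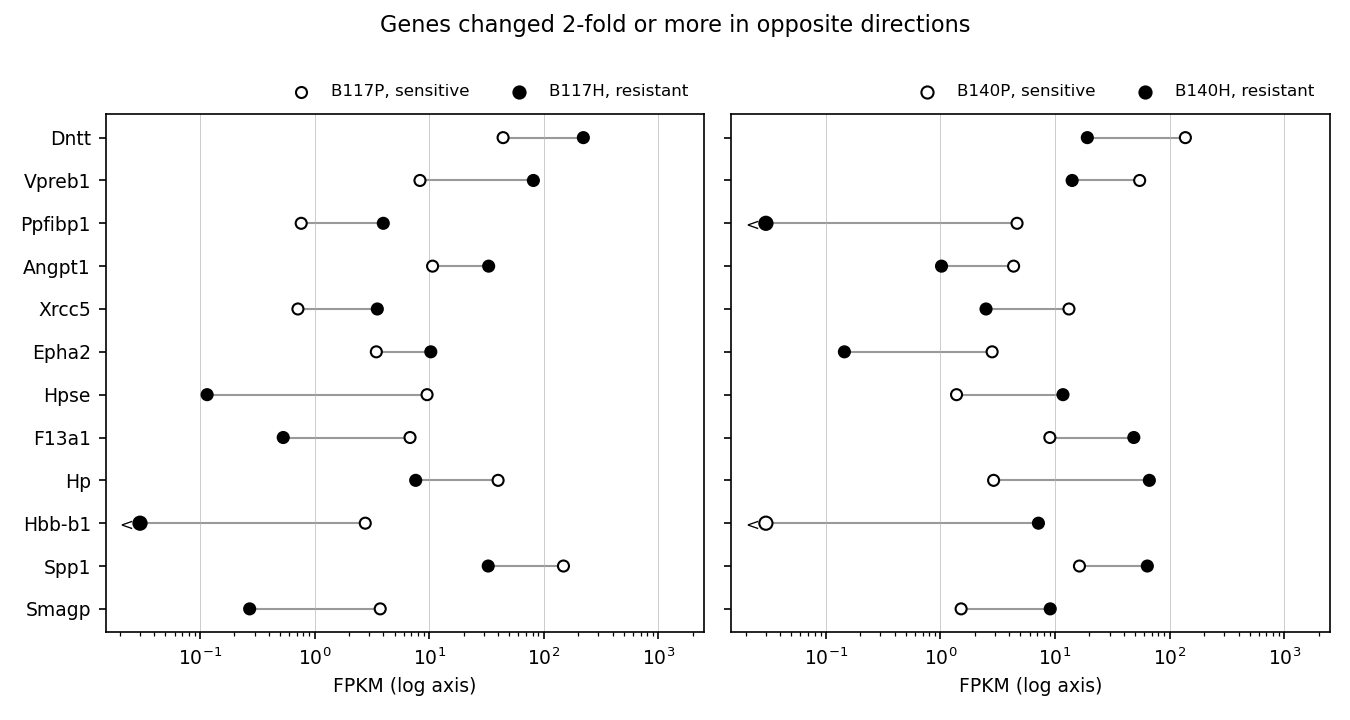
FPKM on a log axis in the sensitive (open) and resistant (filled) line of each lineage for 12 genes changed 2-fold or more in opposite directions, with values under 0.03 drawn at 0.03 and marked "<". The upper 6 genes are higher in B117H and lower in B140H, and the lower 6 the reverse.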

How the data were processed

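RNA of 4 mouse leukaemia cell lines was sequenced, 1 library per line. The deposited FPKM values were made by the authors with TopHat2 2.0.4 and Cuffdiff on mm9, per the submitters' processing notes. How those tools were set is not given in the sources used here. FPKM is already scaled by depth and transcript length, so no count test was run; depth was inferred from the steps between low values. The 4 tables were joined on gene, and listed starts, counted from 0, were raised by 1.

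Log2(FPKM + 1) was fitted with limma 3.58.1 in R 4.3.3, blocking on lineage, with a mean-dependent trend and Benjamini-Hochberg adjustment over 9999 genes. Fold changes are on this scale, which understates those of low genes. A gene was called alike when both ratios passed 2-fold (or 1.5-fold) with 1 sign. The pairing comes from the labels, which give each resistant line's parent; with 2 lines a group, the deviations of a lineage's libraries correlate equally in both lineages by construction (r = 0.77). The fit was also run on simulated data with the same changes in both lineages. That run cannot show how the fit behaves where the lineages differ as they do here.

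Members and the 32 gene lists were chosen with earlier results of these data known. Named were Dck, up to 15 genes per direction alike in both lineages, the 10 lowest limma p-values, 6 opposite genes each way and up to 3 per list. The other genes named (among them Rrm1, Rrm2, Rrm2b, Cd24a, Tapbp, Calr, Slc29a1, Nt5c2, Chek1, Atr, Atm, Ifitm2, Atf4, Trem2 and the identity genes) were chosen after their values were seen. Alternatives covered the pseudocount, the filter, scaling, the small RNA genes, genes listed at 0, the block, the trend and each library left out. P-values measure the spread between these lines only.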

Additional observations from a re-analysis of the deposited data

Results flagged for a closer look

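The 12 genes are given here because the resistant line moved past 2-fold up in 1 lineage and down in the other; the difference was not tested, as each lineage has 1 library per line. Higher in B117H and lower in B140H were Dntt (log2 ratios of 2.30 between the B117 lines and -2.78 between the B140 lines), Vpreb1 (3.14 and -1.88), Ppfibp1 (1.5 and -2.49), Angpt1 (1.54 and -1.40), Xrcc5 (1.40 and -2.02) and Epha2 (1.35 and -1.74). Ppfibp1, a liprin, was at 0.765, 3.98, 4.67 and 0.0083 FPKM in B117P, B117H, B140P and B140H, and its span overlaps an unnamed clone. Epha2, an ephrin receptor, was at 3.46, 10.3, 2.83 and 0.145 FPKM, and Xrcc5 at 0.717, 3.53, 13.2 and 2.50 FPKM, in the same order.

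Lower in B117H and higher in B140H were Hpse (-3.25 and 2.42), F13a1 (-2.35 and 2.31), Hp (-2.25 and 4.11), Hbb-b1 (-1.92 and 3.03), Spp1 (-2.15 and 1.91) and Smagp (-1.90 and 2.0). Hpse, the heparanase that cuts heparan sulphate, was at 9.60, 0.116, 1.38 and 11.7 FPKM in B117P, B117H, B140P and B140H. Spp1, the secreted phosphoprotein osteopontin, was at 149, 32.8, 16.3 and 64.0 FPKM in that order. Hbb-b1, a beta globin that shares its span with Hbb-b2, was listed at 0 in B117H and near 0 in B140P, so its ratios depend on the pseudocount.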

How the results depend on the processing

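Dck stayed at a mean log2 ratio of -2.37 with a minimum mean FPKM of 5 (limma adjusted p = 0.00888) and with genes listed at 0 left out (0.0155), the settings that took it under 0.05; limma then called 3 and 1 genes. Without the replicate block, that is with the pairing ignored, limma called 0 genes, and 35 had an unadjusted p under 0.05. Leaving out 1 library forces an unpaired fit, in which the lone line of an arm is assumed to vary like the others; it called 0 genes each time, and the Dck ratio ran from -2.53 to -2.21. The 2-fold counts and the correlation between lineages need all 4 libraries and have no such value.

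With a pseudocount of 0.1, 54 genes passed 2-fold the same way (21 higher, 33 lower) and 78 in opposite ways. A minimum of 5 FPKM left 23 opposite genes. Keeping small RNA genes gave 23 alike, 12 of them higher. At 1.5-fold, 95 were alike (50 higher, 45 lower) and 165 opposite; at 4-fold 1 (0 higher, 1 lower) and 4. The cause of these shifts was not tested. Leaving out genes that overlap another, chosen after seeing the data, gave 13 alike genes. Mean ratios near 0 turned sign with a pseudocount of 0.1 for Angpt1 (-0.19) and Smagp (-0.43), and with quantile normalisation for Epha2 (0.092), Irf8 (-0.046) and Smagp (-0.066).

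Unpaired fits without 1 library turned the sign for genes whose levels differ between lineages or whose mean ratio is near 0. Their lowest and highest log2 ratios were Mpo -6.07 to 1.88, Mt2 -3.36 to 0.51 and Psat1 -1.90 to 0.39 among genes lower in both past 1.5-fold. Among genes opposite past 2-fold they were Dntt -1.97 to 1.49, Vpreb1 -0.66 to 1.92, Ppfibp1 -1.65 to 0.66, Angpt1 -1.97 to 2.11, Xrcc5 -1.84 to 1.21, Epha2 -1.85 to 1.46, Hpse -2.17 to 1.34, F13a1 -2.53 to 2.49, Hp -0.76 to 2.63, Hbb-b1 -0.96 to 2.07, Spp1 -1.68 to 1.43, Smagp -1.44 to 1.55, Irf8 -0.83 to 0.96, Cd24a -2.48 to 1.88, Trem2 -1.59 to 0.56 and Gtf2b -1.38 to 1.12. For the other genes named they were Atf4 -0.68 to 0.58, Atm -0.93 to 0.28, Atr -0.87 to 0.31, Calr -0.79 to 0.69, Chek1 -0.43 to 0.53, Elane -4.26 to 1.63, Fdps -0.22 to 0.99, Ifitm2 -0.67 to 0.65, Mvd -0.025 to 1.31, Nt5c2 -0.81 to 0.71, Rrm2b -0.042 to 0.14 and Slc29a1 -0.19 to 0.78. Depth limits values under about 0.0601 to 0.0777 FPKM on a 2 kb transcript.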
